A study of Homo sapiens with 6 samples.

Results

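The HSP70 family was followed here through 10 of its genes (HSPA1A, HSPA1B, HSPA1L, HSPA4, HSPA5, HSPA6, HSPA8, HSPA9, HSPA13 and HSPA14), taken by their Ensembl gene identifiers from the 58288 genes in the expression table. HSPA1A and HSPA1B were selected on their values in these libraries, since both were listed at 0 in one rescue and at high levels in the other. Their own difference is therefore described without a test, while the other 8 genes entered as relatives of the pair.

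RNA was sequenced from K562, a human erythroleukemic cell line. One single-cell clone of K562 stably expressed 3xFLAG-2KR-Myb-HA, the mutant of the transcription factor MYB that cannot be conjugated to the small protein modifier SUMO. The other clone stably expressed 3xFLAG-ANAA-Myb-HA, the mutant that cannot bind SUMO. Both clones were kept under 200 µg/ml G418 and both received the siRNA si2992 (siU2992) against endogenous MYB 24 h before RNA was taken, so each rescue carried the knockdown and its own MYB version. Each rescue had 3 libraries, all from its 1 clone, so a difference between the MYB versions and a difference between the clones cannot be told apart. Expression was given as FPKM, a measure scaled by transcript length and by the number of mapped fragments, which allows levels of genes of unequal length to be compared.

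Cells meet misfolded protein with HSP70 chaperones. These ATPases hold exposed stretches of unfolded chains and let them go again, and J-domain proteins, which bring the substrate and stimulate the ATPase, and nucleotide exchange factors, which open the nucleotide pocket, drive the cycle. HSPA8 is the constitutive cytosolic form, HSPA5 (BiP) serves the endoplasmic reticulum and HSPA9 (mortalin) the mitochondrial matrix. HSPA1A, HSPA1B and HSPA6 are the stress-inducible cytosolic forms, switched on by the heat shock factor HSF1 through heat shock elements, which are inverted repeats of the unit GAAN.

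MYB, the target of the siRNA (chr6:135181308-135219172, GRCh38.p14), was at 69.0, 61.2 and 67.5 FPKM in the 2KR-MYB libraries and at 53.6, 55.3 and 62.0 FPKM in those with ANAA-MYB. These values hold endogenous and introduced MYB together, the ranges overlapped, and the difference did not pass the test (log2 difference 0.21 ± 0.070 SE, limma adjusted p = 0.062, n = 3 per rescue). All 8 K562 markers were at 14.1 FPKM or more in each library. The 5 markers of other cells (CD3E, MS4A1, ALB, KRT5 and COL1A1) summed to 1.71 to 3.25 FPKM in the 2KR-MYB rescue and to 0.857 to 1.28 FPKM in the ANAA-MYB rescue, with MS4A1 listed at 0 throughout. Of these, COL1A1 was at 1.34 to 2.86 FPKM with 2KR-MYB and 0.411 to 0.648 FPKM with ANAA-MYB, and its part in the results was not tested. Of 19 genes that every cell uses, 18 were at 10 FPKM or more in all 6 libraries, but the elongation factor gene EEF1A1 was listed at 0 in all 6. For that reason a 0 is given below only as a listed value. Replicate 3 of the 2KR-MYB rescue stood apart from its 2 companions on the second principal component, which held 14.6% of the variance (scores of 15.7, 6.76 and -21.5), while the first, with 52%, separated the rescues.

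The start regions of the inducible pair show how alike the genes are. The stretches are the 250 bases before the RefSeq start in GRCh38.p14, 5′ to 3′ on the strand of the gene, and capitals mark a heat shock element of at least 2 units (GAANNTTC or TTCNNGAA). The RefSeq table of start regions gave 1 start for each member shown.
HSPA1A (chr6:31815293-31815542, plus strand): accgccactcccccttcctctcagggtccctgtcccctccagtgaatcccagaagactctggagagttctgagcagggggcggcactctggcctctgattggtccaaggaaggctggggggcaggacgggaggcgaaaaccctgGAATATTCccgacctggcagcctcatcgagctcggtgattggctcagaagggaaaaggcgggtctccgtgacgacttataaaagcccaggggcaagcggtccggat
HSPA1B (chr6:31827488-31827737, plus strand): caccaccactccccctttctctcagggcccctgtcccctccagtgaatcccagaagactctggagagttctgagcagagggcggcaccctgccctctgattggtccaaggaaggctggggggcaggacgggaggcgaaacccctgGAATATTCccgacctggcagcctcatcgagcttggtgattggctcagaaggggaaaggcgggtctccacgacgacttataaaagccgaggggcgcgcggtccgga
The 2 stretches agreed at 235 of 251 aligned positions (93.6%), and each held the match GAATATTC, at bases 106 to 99 before the start in HSPA1A and 105 to 98 in HSPA1B. HSPA1L runs the other way, with 259 bases between it and HSPA1A, so its 250-base stretch (chr6:31815284-31815533, minus strand) covers nearly the same sequence and holds the same element, at 161 to 154 before its own start.

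Promoters of 3 further members are shown because they belong to the other regulatory classes, with the same capitals, except that in HSPA5 the capitals mark a match to the endoplasmic reticulum stress element (ERSE, CCAAT and CCACG set 9 bases apart, or the reverse complement).
HSPA6 (chr1:161524290-161524539, plus strand): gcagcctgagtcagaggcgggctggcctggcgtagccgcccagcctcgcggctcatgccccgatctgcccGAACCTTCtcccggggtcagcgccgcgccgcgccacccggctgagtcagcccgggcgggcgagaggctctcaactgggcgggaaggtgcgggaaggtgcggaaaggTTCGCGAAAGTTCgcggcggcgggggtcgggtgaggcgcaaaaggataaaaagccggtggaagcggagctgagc
HSPA8 (chr11:123062137-123062386, minus strand): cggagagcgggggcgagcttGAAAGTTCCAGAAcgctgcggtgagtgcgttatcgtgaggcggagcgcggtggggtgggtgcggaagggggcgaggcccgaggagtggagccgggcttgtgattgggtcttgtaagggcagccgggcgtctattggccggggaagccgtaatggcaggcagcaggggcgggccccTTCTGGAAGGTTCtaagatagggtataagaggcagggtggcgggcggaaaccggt
HSPA5 (chr9:125241344-125241593, minus strand): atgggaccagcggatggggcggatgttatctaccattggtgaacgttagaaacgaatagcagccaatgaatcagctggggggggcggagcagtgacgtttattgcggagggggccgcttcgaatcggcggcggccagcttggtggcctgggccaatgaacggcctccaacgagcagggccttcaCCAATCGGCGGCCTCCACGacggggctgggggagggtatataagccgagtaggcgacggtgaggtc
HSPA6, the most strictly inducible member, had 3 heat shock matches, 2 of which overlapped and formed a 3-unit element (TTCGCGAAAGTTC). HSPA8 had 4 matches forming 2 such 3-unit elements (GAAAGTTCCAGAA and TTCTGGAAGGTTC). The start used for HSPA8 lies 326 bases inside the full span that RefSeq gives the gene, so its stretch is within the annotated gene, while the starts of the other members printed here are the first bases of their spans. HSPA5 had the stress element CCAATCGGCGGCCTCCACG at 66 to 48 before its start and no heat shock match, and HSPA4, HSPA9 and HSPA13 had neither kind. Searched on both strands, a 2-unit match was in 11.6% of 35116 RefSeq start regions of this length, a 3-unit match in 0.441% and the endoplasmic reticulum element in 0.074%. These are matches of letters, and binding at them was not measured.

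The transcripts of the pair are alike over most of their length. Their coding sequences, each of 1923 bases, differed at 4 positions, written with the base of HSPA1A first and counted from the A of the start codon: G1710T, G1860C, C1905T and A1920G. Of all stretches of 150 bases, the read length, in the HSPA1A transcript, 69.6% also occurred in that of HSPA1B, and 66.1% in the reverse direction. A read from these stretches fits both genes, so how the 2 values divide their sum is uncertain, while no 150-base stretch was shared with any other member. HSPA1A matched HSPA1L at 80.9% and HSPA6 at 80.7% of aligned coding positions, HSPA8 at 73.3%, HSPA5 at 59.4% and HSPA9 at 49.8%. HSPA6 shared 15.3% of its 150-base stretches with the pseudogene HSPA7, which was at 0.329 to 0.485 FPKM.

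HSPA1A (ENSG00000204389, chr6:31815543-31817942) was listed at 0 in all 3 libraries of the 2KR-MYB rescue and was at 390, 411 and 324 FPKM in the 3 of the ANAA-MYB rescue. HSPA1B (ENSG00000204388, chr6:31827738-31830254), whose start lies 12.2 kb further on, likewise had a listed 0 in each 2KR-MYB library and was at 219, 232 and 185 FPKM with ANAA-MYB. Both genes were lowest in the third ANAA-MYB library, and the ratio of HSPA1A to HSPA1B held at 1.78, 1.77 and 1.76. Because of their shared sequence the sum of the pair is the firmer quantity, and with ANAA-MYB it came to 609, 642 and 509 FPKM. The scatter between the ANAA-MYB libraries was 12.0% of the mean for HSPA1A and 11.4% for HSPA1B, beside 13.0% for HSPA6, 6.71% for HSPA8 and 0.936% for HSPA5. No fold is given against values listed at 0. As EEF1A1 was listed at 0 too, whether the 0 of the pair stands for no transcript or for no estimate was not tested.

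The nearest relative by position and one of the nearest by sequence kept a low level in both rescues. HSPA1L (ENSG00000204390, chr6:31809619-31815283), a constitutive relative best known from testis, was at 3.14, 3.33 and 2.74 FPKM in the 2KR-MYB libraries and at 2.13, 2.03 and 1.86 FPKM in those with ANAA-MYB. The libraries did not overlap and the higher values were those of the rescue in which HSPA1A was listed at 0, but the difference missed the threshold of 0.01 (log2 difference 0.43 ± 0.093 SE, limma adjusted p = 0.012, n = 3 per rescue), with 0.0093 to 0.048 over the alternative settings. In bulk libraries such as these, fewer cells with a transcript and less of it per cell cannot be told apart.

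HSPA6 (ENSG00000173110, chr1:161524540-161526894), the other inducible member, was at 7.98, 6.98 and 2.83 FPKM in the 2KR-MYB libraries and at 3.14, 4.05 and 3.46 FPKM in those with ANAA-MYB. The first and second 2KR-MYB libraries were above all ANAA-MYB libraries and the third was below them, and the difference did not pass (log2 difference 0.52 ± 0.28 SE, limma adjusted p = 0.21, n = 3 per rescue). Without replicate 3 of the 2KR-MYB rescue it was 0.90, with a limma adjusted p of 0.0018, so this 1 library decided the call. In no library did HSPA6 come near the level that HSPA1A and HSPA1B had with ANAA-MYB.

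HSPA8 (ENSG00000109971, chr11:123057489-123062462), the constitutive form, was the most abundant member in every library. It was at 2542, 2496 and 2304 FPKM in the 2KR-MYB libraries and at 2566, 2720 and 2931 FPKM in those with ANAA-MYB. The rescues did not overlap, but the highest 2KR-MYB library nearly met the lowest ANAA-MYB library, and the difference did not pass (log2 difference -0.16 ± 0.074 SE, limma adjusted p = 0.15, n = 3 per rescue).

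Of the organelle forms, HSPA5 (ENSG00000044574, chr9:125234853-125241343) was at 519, 607 and 486 FPKM in the 2KR-MYB libraries and at 592, 603 and 596 FPKM in those with ANAA-MYB. These ranges overlapped (log2 difference -0.16 ± 0.079 SE, limma adjusted p = 0.18, n = 3 per rescue). HSPA9 (ENSG00000113013, chr5:138553756-138575401) was at 377, 395 and 374 FPKM in the 2KR-MYB libraries and at 319, 336 and 365 FPKM in those with ANAA-MYB, apart but past no threshold (log2 difference 0.17 ± 0.059 SE, limma adjusted p = 0.068, n = 3 per rescue). HSPA13 (ENSG00000155304, chr21:14371115-14383146), a microsome-associated member that lacks the substrate-binding part, was at 25.1, 26.2 and 25.9 FPKM in the 2KR-MYB libraries and at 20.3, 19.9 and 22.3 FPKM in those with ANAA-MYB. It was the member that passed, higher with 2KR-MYB by 0.30 ± 0.057 (SE) on the log2 scale (limma adjusted p = 0.0070, n = 3 per rescue, ratio of means 1.24). That call was lost without any of the 3 2KR-MYB libraries (adjusted p = 0.020, 0.029 and 0.022), without ANAA-MYB replicate 1 (0.027) or 2 (0.029), without the filter on low values (0.020) and with the replicate number as a block (0.015).

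The exchange factor HSPA4 (ENSG00000170606, chr5:133052013-133106449), of the related HSP110 branch, was at 177, 184 and 180 FPKM in the 2KR-MYB libraries and at 157, 163 and 170 FPKM in those with ANAA-MYB (log2 difference 0.14 ± 0.047 SE, limma adjusted p = 0.057, n = 3 per rescue). HSPA14 (ENSG00000187522, chr10:14838306-14871741), which works at the ribosome with the J-domain protein DNAJC2, was at 46.2, 45.6 and 46.7 FPKM in the 2KR-MYB libraries and at 49.3, 52.2 and 55.1 FPKM in those with ANAA-MYB (log2 difference -0.17 ± 0.051 SE, limma adjusted p = 0.041, n = 3 per rescue). In both genes the libraries of the rescues did not overlap, and the differences were small.

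Across the 8 relatives of the pair, all 8 passed the filter of a mean of 1 FPKM, and 1 passed the threshold (limma adjusted p < 0.01), higher with 2KR-MYB. Among all 12634 genes tested, 13.0% passed, 5.57% with the higher level in 2KR-MYB and 7.42% with the higher level in ANAA-MYB, so the share among the relatives was near the background. The 3 libraries of one rescue lay wholly above those of the other in 6 of the 8, upward with 2KR-MYB in 4 and with ANAA-MYB in 2, where 44.9% of all tested genes did so. Upper quartile scaling, which moved the share of calls that were higher with 2KR-MYB from 42.9% to 54.5% over all genes, let HSPA1L and HSPA4 pass beside HSPA13, all higher with 2KR-MYB.

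HSPA8 held the largest part of the summed level in both rescues. With 2KR-MYB the order of mean levels was HSPA8 (2447 FPKM), HSPA5 (538), HSPA9 (382), HSPA4 (180), HSPA14 (46.2), HSPA13 (25.7), HSPA6 (5.93) and HSPA1L (3.07), where the libraries of HSPA6 and HSPA1L overlapped and those of the other neighbours did not. With ANAA-MYB, HSPA1A (375 FPKM) stood between HSPA5 (597) and HSPA9 (340), overlapping HSPA9, and HSPA1B (212) between HSPA9 and HSPA4 (163). HSPA1A and HSPA1B made up 14.1%, 14.1% and 10.9% of the summed FPKM of the 10 genes in the 3 ANAA-MYB libraries, and HSPA8 made up 59.4%, 59.9% and 63.0%. These shares rest on the listed values of the pair. With HSPA1A and HSPA1B left out of the sum in both rescues, HSPA8 held 68.8%, 66.3% and 67.3% with 2KR-MYB and 69.2%, 69.7% and 70.7% with ANAA-MYB. Without the pair, the family summed to 3628 ± 181 FPKM (SD, n = 3) with 2KR-MYB and to 3918 ± 219 FPKM with ANAA-MYB.

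**Figure D1:**
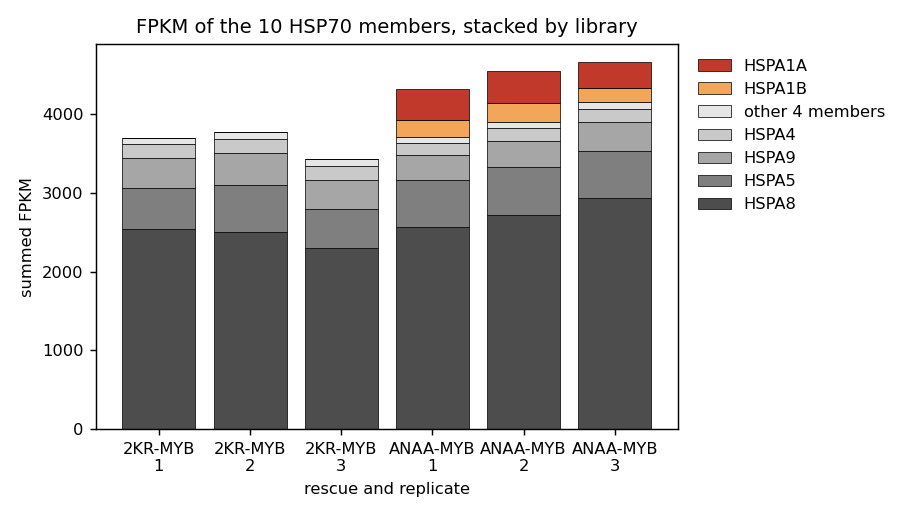
Summed FPKM of the 10 HSP70 genes in each library, stacked by gene, with HSPA13, HSPA14, HSPA6 and HSPA1L drawn as 1 block. The 3 ANAA-MYB bars reach 4317 to 4654 FPKM, of which HSPA1A and HSPA1B hold 509 to 642, and the 3 2KR-MYB bars reach 3422 to 3764 FPKM, where the pair is listed at 0 and so adds no block.

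Of the remaining HSP70 superfamily genes, those tested all had a positive log2 difference, and HSPH1 and HSPA4L passed the threshold. HSPH1, the large exchange factor HSP110, was at 268, 277 and 218 FPKM in the 2KR-MYB libraries and at 145, 152 and 160 FPKM in those with ANAA-MYB, a difference of 0.73 ± 0.091 (SE) on the log2 scale (limma adjusted p = 0.00099, n = 3 per rescue). The call of HSPH1 was lost without the filter on low values (adjusted p = 0.011). HSPA4L, a relative of HSPH1, was at 47.4, 48.8 and 39.0 FPKM against 31.6, 31.7 and 35.0 FPKM (log2 difference 0.44 ± 0.087 SE, limma adjusted p = 0.0080, n = 3 per rescue). The call of HSPA4L was lost without 2KR-MYB replicate 1 or 2 (adjusted p = 0.031 and 0.030) and without any ANAA-MYB replicate (0.028, 0.030 and 0.015), and also with the replicate number as a block (0.024) and without the filter on low values (0.040). HYOU1, the large chaperone of the endoplasmic reticulum, did not pass (175, 213 and 197 FPKM against 177, 182 and 173 FPKM, limma adjusted p = 0.21). HSPA2, HSPA7, HSPA12A and HSPA12B stayed at or below 0.485 FPKM in all 6 libraries and were not tested.

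Where genes of the heat shock response outside the 10 members passed the test, they were higher in the rescue in which HSPA1A and HSPA1B were listed at 0. Of 28 such genes tested, 9 passed and all 9 were higher with 2KR-MYB (32.1%, beside 13.0% of all genes). The log2 difference was positive in 27 of 28, beside 5914 of all 12634 tested genes, with a median of 0.24 beside -0.015. This list and those below were chosen with earlier results of these data known, so their shares only describe these genes. HSF1 itself, the factor that drives the response, was the gene with a negative difference and did not pass (30.5, 32.0 and 30.9 FPKM against 34.1, 32.8 and 34.1 FPKM, log2 difference -0.11 ± 0.046 SE, limma adjusted p = 0.11, n = 3 per rescue).

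BAG3, the co-chaperone that links HSP70 to autophagy, was at 84.7, 89.8 and 71.4 FPKM in the 2KR-MYB libraries and at 49.0, 44.8 and 47 FPKM in those with ANAA-MYB (log2 difference 0.79 ± 0.083 SE, limma adjusted p = 0.00050, n = 3 per rescue). HSPB8, the small heat shock protein that works with BAG3, had the largest difference of the list, at 4.59, 4.92 and 3.04 FPKM against 0.947, 1.06 and 0.879 FPKM (1.38 ± 0.15, adjusted p = 0.00051). HSPB8 passed the filter of 1 FPKM only through the 2KR-MYB rescue (mean 4.18 FPKM, beside 0.963 FPKM with ANAA-MYB). Its place as the largest difference is therefore not used as support. At a mean of at least 5 FPKM, a separate fit that leaves HSPB8 out, 9 of 27 heat shock genes passed, beside 1286 of all 9306 genes tested. HSPB8 is among the 9 genes of the main fit, so the 9 that passed here are not the same genes. DNAJB4, a cytosolic J-domain protein, was at 111, 126 and 99.2 FPKM against 59.5, 68.3 and 57.1 FPKM (0.85 ± 0.096, adjusted p = 0.00066). JMJD6, a hydroxylase, was at 39.9, 42.6 and 39.8 FPKM against 31.8, 30.2 and 30.0 FPKM (0.40 ± 0.050, adjusted p = 0.0010). HSPE1, also on this list, is described with the mitochondrial genes. With HSPH1 and HSPE1, these genes were named for their small adjusted p, which goes with libraries that do not overlap. Over the list, the libraries of the rescues did not overlap in 22 of 28 genes, in either direction, beside 44.9% of all tested genes.

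**Figure D2:**
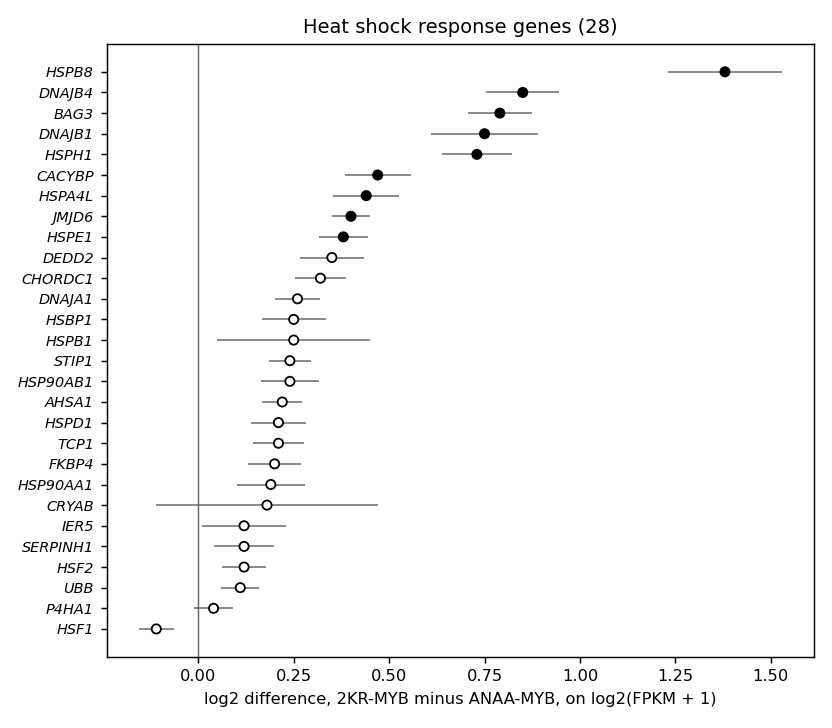
Difference between the rescues (2KR-MYB minus ANAA-MYB, on the log2(FPKM + 1) scale) for 28 heat shock response genes, as a point with its standard error over 3 libraries per rescue. Filled points passed limma's adjusted p < 0.01 and are 9, all to the right of 0, with HSPB8 the farthest at 1.38. HSPB8 passed the filter on low values only through its level in the 2KR-MYB rescue.

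The library that stood apart was low in these genes. Replicate 3 of the 2KR-MYB rescue was the lowest of its rescue in 20 of the 28 and lay below the mean of the other two in 24 of them (85.7%, beside 42.4% of all tested genes), with a median log2 difference of -0.11. Some of the classical heat shock genes, named here after their values were seen, showed it most. CRYAB, a small heat shock protein, was at 109, 87.1 and 43.0 FPKM in the 2KR-MYB libraries and 61.3, 68.9 and 66.9 FPKM in those with ANAA-MYB, and HSPB1 was at 412, 417 and 237 FPKM against 283, 309 and 276 FPKM. DNAJB1, the main J-domain partner of the inducible forms, was at 253, 262 and 173 FPKM against 132, 137 and 131 FPKM (log2 difference 0.75 ± 0.14 SE, limma adjusted p = 0.0061, n = 3 per rescue). Its call was lost without 2KR-MYB replicate 1 (0.023) or 2 (0.021) and without ANAA-MYB replicate 1 (0.020), 2 (0.019) or 3 (0.024). It was also lost without the filter on low values (0.04) and with the robust prior for the variance (0.013). Without replicate 3 of the 2KR-MYB rescue, 10 of the 28 passed, all higher with 2KR-MYB, and without its replicate 1 or 2 the number was 5. Calls over all genes also depended on the library left out. They were 1204 without replicate 3 and 852 and 892 without replicate 1 and 2, beside 1642 in the main fit.

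The genes whose products work directly with HSP70 moved in both directions. Of 41 J-domain proteins, BAG-domain proteins, exchange factors and adaptors, 12 passed, 8 of them higher with 2KR-MYB and 4 lower (29.3%, beside 13.0%), and their median log2 difference was -0.01. The list shares 7 genes with the heat shock list. Among them BAG3, DNAJB1, DNAJB4, HSPA4L and HSPH1 passed, higher with 2KR-MYB, and were already counted there. Most of the 8 calls higher with 2KR-MYB are therefore not separate from that list. DNAJB6, a J-domain protein that holds back aggregation, was at 171, 180 and 163 FPKM in the 2KR-MYB libraries and 98.8, 113 and 99.3 FPKM in those with ANAA-MYB (log2 difference 0.72 ± 0.065 SE, limma adjusted p = 0.00025, n = 3 per rescue). On the other side were DNAJC12, a J-domain protein of aromatic amino acid hydroxylases, at 13.2, 14.3 and 14.4 FPKM against 21.6, 26.3 and 24.0 FPKM (-0.73 ± 0.076, adjusted p = 0.00047), and STUB1 (CHIP), the ubiquitin ligase that docks on HSP70, at 45, 47.3 and 42.0 FPKM against 62.5, 62.6 and 60.9 FPKM (-0.46 ± 0.053, adjusted p = 0.00069). The number that passed was 6 without 2KR-MYB replicate 1 or 2 and 7 without ANAA-MYB replicate 1 or 2. Over all genes it fell too, from 1642 to 852, 892, 992 and 902 in these fits, in that order.

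In the endoplasmic reticulum, HSPA5 itself did not pass, while some of its partners and of the genes of the unfolded protein response did. Of 26 such genes, 11 passed and all 11 were higher with 2KR-MYB (42.3%, beside 13.0%), with a median log2 difference of 0.22. As this list too was chosen with earlier results of these data known, its share is only descriptive. DDIT3 (CHOP), a stress-induced transcription factor, was at 62.7, 73.0 and 71.4 FPKM in the 2KR-MYB libraries and 43.4, 42.6 and 44.6 FPKM in those with ANAA-MYB (log2 difference 0.65 ± 0.063 SE, limma adjusted p = 0.00035, n = 3 per rescue). HERPUD1, of the degradation machinery, was at 89.2, 99 and 85.5 FPKM against 60.8, 57.1 and 53.1 FPKM (0.67 ± 0.070, adjusted p = 0.00049). MANF, a secreted stress protein, was at 72.0, 82.6 and 79.5 FPKM against 52.0, 55.2 and 47.6 FPKM (0.59 ± 0.071, adjusted p = 0.00088). These 3 genes were named for their small adjusted p, which goes with libraries that do not overlap. Over the list, the libraries of the rescues did not overlap in 17 of 26 genes, in either direction, beside 44.9% of all tested genes.

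DNAJB11, the J-domain partner of HSPA5, was at 135, 150 and 139 FPKM in the 2KR-MYB libraries and 106, 107 and 109 FPKM in those with ANAA-MYB (log2 difference 0.39 ± 0.051 SE, limma adjusted p = 0.0013, n = 3 per rescue). SEL1L, which anchors the ubiquitin ligase of this compartment, was at 23.2, 24.4 and 25.7 FPKM against 17.8, 18.5 and 18.7 FPKM (0.40 ± 0.055, adjusted p = 0.0017). ATF4, a factor of the integrated stress response, was at 299, 305 and 272 FPKM against 233, 217 and 225 FPKM (0.37 ± 0.057, adjusted p = 0.0026). The ATF4 call was lost without 2KR-MYB replicate 1 or 2 (0.013 for each), without ANAA-MYB replicate 2 (0.012) and without the filter on low values (0.015). The number of genes that passed was 6 and 5 without 2KR-MYB replicate 1 and 2, and 7, 5 and 6 without ANAA-MYB replicate 1, 2 and 3. In the same fits 852, 892, 992, 902 and 1045 of all genes passed, beside 1642 in the main fit.

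**Figure D3:**
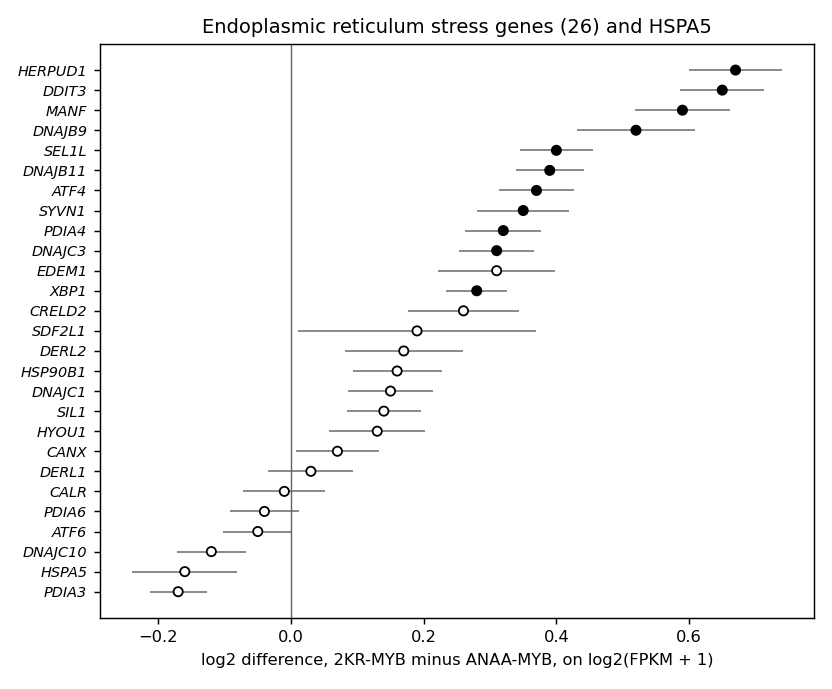
Difference between the rescues (2KR-MYB minus ANAA-MYB, on the log2(FPKM + 1) scale) for 26 genes of endoplasmic reticulum stress and for HSPA5, as points with standard errors over 3 libraries per rescue. The 11 filled points passed limma's adjusted p < 0.01 and lie between 0.28 and 0.67, while HSPA5 lies at -0.16.

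The mitochondrial chaperone genes, of which partners of HSPA9 are only a part, were close to the background. Of 18 genes, 2 passed, both higher with 2KR-MYB (11.1%, beside 13.0%), with a median log2 difference of -0.02. HSPE1, the cochaperonin HSP10, was at 683, 684 and 709 FPKM in the 2KR-MYB libraries and 485, 554 and 554 FPKM in those with ANAA-MYB (log2 difference 0.38 ± 0.064 SE, limma adjusted p = 0.0037, n = 3 per rescue). DNAJC15, a J-domain protein of the inner membrane, was at 2.02, 1.92 and 2.64 FPKM against 1.12, 0.772 and 0.875 FPKM (0.73 ± 0.13, adjusted p = 0.0044). It passed the filter on low values only through the 2KR-MYB rescue (mean 2.19 FPKM, beside 0.921 FPKM with ANAA-MYB). None of the 18 passed without replicate 1, 2 or 3 of the 2KR-MYB rescue, and 1 passed without ANAA-MYB replicate 2 or 3. Among all genes 852, 892, 1204, 902 and 1045 passed in these fits, in that order, beside 1642 in the main fit. For HSPE1 the adjusted p without each 2KR-MYB library was 0.014, 0.016 and 0.012, and for DNAJC15 it was 0.014, 0.011 and 0.012. Both calls were also lost without the filter on low values (0.024 and 0.025). DNAJC15 lost its call without ANAA-MYB replicate 2 (0.018) or 3 (0.017) and with the replicate number as a block (0.013) as well.

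The genes around HSPA1A and HSPA1B on chromosome 6 were tested only where their mean reached 1 FPKM. That filter takes out most genes listed at 0, so the lack of a listed 0 among the tested genes says little. RefSeq places 51 other genes with a start (the lower coordinate) within 200 kb of that of HSPA1A, 47 of them were matched to values, and 28 passed the filter. Of these, 3 passed the threshold, all higher with ANAA-MYB. Among all genes 13.0% passed in either direction and 7.42% with the higher level in ANAA-MYB, so the share was near the background. The log2 differences of the 28 ran from -0.36 to 0.24, with a median of -0.01, and genes below the filter are not in this range. LSM2, an RNA-binding protein whose start lies 18.1 kb away beyond HSPA1L, was at 79.4, 79.3 and 83.0 FPKM in the 2KR-MYB libraries and 92.7 to 102 FPKM in those with ANAA-MYB (-0.29 ± 0.052, limma adjusted p = 0.0055, n = 3 per rescue). C6orf47, at 157.2 kb, was at 13.5, 14.6 and 14.3 FPKM against 18.1, 18.1 and 18.2 FPKM (-0.34 ± 0.052, adjusted p = 0.0025), and its neighbour GPANK1, at 154.3 kb, at 38.4, 37.7 and 39.8 FPKM against 48.2, 53.2 and 48.3 FPKM (-0.36 ± 0.054, adjusted p = 0.0025). Without 2KR-MYB replicate 1 none of 29 tested genes near HSPA1A passed, and 1 passed without 2KR-MYB replicate 2 or without ANAA-MYB replicate 2. Calls over all genes fell from 1642 to 852, 892 and 902 in these fits. LSM2 lost its call without each library but ANAA-MYB replicate 1 (adjusted p = 0.011 to 0.025), C6orf47 lost it without 2KR-MYB replicate 1 (0.012) or ANAA-MYB replicate 1 (0.011) or 2 (0.012), and GPANK1 without 2KR-MYB replicate 1 (0.012) or 2 (0.013). Without the filter on low values, LSM2 (0.019) and GPANK1 lost it as well.

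On the far side of HSPA1B, the nearest tested gene was the noncoding RNA gene SNHG32, 19.4 kb from the start of HSPA1A, at 199, 194 and 210 FPKM in the 2KR-MYB libraries and 196, 192 and 215 FPKM in those with ANAA-MYB. Its values overlapped between the rescues (log2 difference 0.00 ± 0.059 SE, limma adjusted p = 0.99, n = 3 per rescue). VARS1, 38.0 kb away on the near side, was at 126, 140 and 138 FPKM against 149, 138 and 153 FPKM (adjusted p = 0.16), and NEU1, at 42.1 kb, was at 73.7, 76.8 and 75.8 FPKM against 87.8, 85.4 and 81.8 FPKM (adjusted p = 0.028). The HSP70 co-chaperone gene BAG6, 176.5 kb away, was at 229, 243 and 238 FPKM against 230, 234 and 258 FPKM (adjusted p = 0.80). Of the 47 genes, 5 small RNA genes or pseudogenes (SNORA38, MIR4646, RNU6-850P, SNORD48 and SNORD52) were listed at 0 in all 6 libraries. The pseudogene WHR1B, 197.8 kb away, was listed at 0 in all 2KR-MYB libraries and at 0, 2.48 and 2.56 FPKM in the other rescue. In the opposite direction, LY6G6E and EHMT2-AS1 were listed at 0 in all ANAA-MYB libraries and had a value in 1 2KR-MYB library each, of 0.103 and 0.194 FPKM. Below the filter, MPIG6B, 95.2 kb away, was at 1.31, 1.18 and 2.19 FPKM with 2KR-MYB against 0.448, 0.304 and 0.363 FPKM. LY6G6C, at 96.9 kb, was at 0.973, 0.896 and 1.35 FPKM against 0.14, 0.0775 and 0.423 FPKM. CYP21A1P and C4B, at 0.234 FPKM or less, were also higher in every 2KR-MYB library. No untested neighbour was higher in every ANAA-MYB library.

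**Figure D4:**
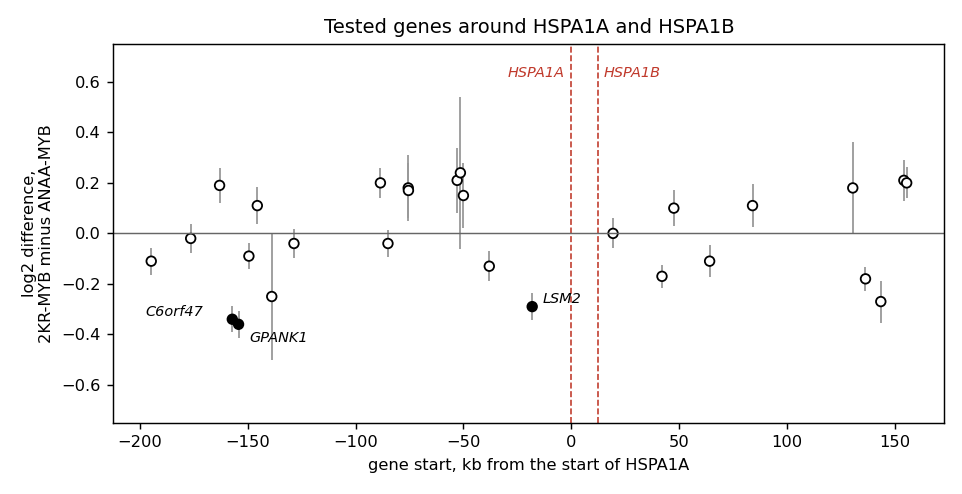
Difference between the rescues (2KR-MYB minus ANAA-MYB, on the log2(FPKM + 1) scale, with standard errors) for the 28 tested genes with a start within 200 kb of HSPA1A, against the distance of their starts in kb. Dashed lines mark HSPA1A and HSPA1B, filled points the 3 genes past limma's adjusted p < 0.01, and all 28 lie between -0.36 and 0.24.

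Few genes in the table behaved as the pair did. HSPA1A, HSPA1B and 3 further genes were listed at 0 in all 2KR-MYB libraries and at 1 FPKM or more in each ANAA-MYB library. The others were BCHE, which encodes butyrylcholinesterase (2.2, 2.06 and 1.90 FPKM with ANAA-MYB), ENSG00000231331 (3.23, 1.89 and 3.61 FPKM) and ENSG00000232502 (1.29, 1.23 and 1.31 FPKM), all far below the pair. One gene, ENSG00000269246, had the opposite pattern, at 12.5, 15.4 and 15.3 FPKM in the 2KR-MYB libraries and at a listed 0 in all ANAA-MYB libraries. In all, 6 genes had such a pattern, and with 1 library left out the number was 10 without 2KR-MYB replicate 1 or 3, 11 without ANAA-MYB replicate 1 and 10 without ANAA-MYB replicate 3. At 5 FPKM or more, HSPA1A, HSPA1B and ENSG00000269246 were left.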

How the data were processed

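RNA-Seq libraries of the 2KR-MYB and ANAA-MYB rescues (3 each) were made with a strand-specific poly(A) kit, per the labels. The submitters' processing notes name bcl2fastq 2.18.0.12, Trimmomatic 0.36, TopHat2 2.1.1, Cufflinks, Cuffdiff 2.2.1 and the GRCh38 build. The authors deposited FPKM values per gene and replicate. How reads that fit several genes were shared out is not given in the sources used here. Read counts were not used here, and because low FPKM values had no common step between libraries, the depth is unknown. FPKM summed to 579920 to 633662 per library. The table holds 12 further columns of per-sample values, which were not used. Symbols matched 55854 of 58288 gene identifiers.

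The main test was limma 3.58.1 (R 4.3.3) on log2(FPKM + 1) with an intensity trend in the variance, over the 12634 genes whose mean over the 6 libraries reached 1 FPKM, adjusted after Benjamini and Hochberg, with a threshold of 0.01. Differences are 2KR-MYB minus ANAA-MYB on that scale, which understates changes of low genes, and ratios of means are of FPKM. All libraries of a rescue came from 1 clone and were called biological replicates, so p-values measure the spread between these libraries. With 3 against 3, an exact permutation test could not go below 0.1 and none was used. Scripts were tested on simulated data. Coordinates, start regions and neighbours were taken from RefSeq tables (GRCh38.p14). A start region was found for each of the 10 genes except HSPA14. Transcript and coding sequences of Ensembl canonical transcripts were compared with Biopython 1.88. Members and gene lists were chosen with earlier results of these data known, and 2 genes first on these lists are not reported here. Named were MYB, the members, the other superfamily genes, up to 6 genes of each list with the smallest adjusted p below the threshold, genes near HSPA1A and genes listed at 0 in 1 rescue, with exceptions stated beside them. The lists share genes: 7 between partners and heat shock genes, 2 between heat shock and mitochondrial genes and 2 between endoplasmic reticulum genes and partners. Alternatives were pseudocounts of 0.1 and 0.01 FPKM, no filter or 5 FPKM, upper quartile and quantile scaling, blocking on the replicate number, a robust prior for the variance, omission of each library and a threshold of 0.05.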

Additional observations from a re-analysis of the deposited data

How the results depend on the processing

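Over the 31 genes followed singly, 405 of 461 alternative values kept their direction and their side of the threshold, 49 kept the direction and lost the call, 7 gained one and none changed sign. The number of genes past the threshold (1642) was 942 without the filter on low values, 1089 with the replicate number as a block, 3402 at a threshold of 0.05 and 852 to 1204 with 1 library left out. For the 8 relatives of HSPA1A and HSPA1B (1) it was 0 without the filter, 3 with upper quartile scaling, 2 with quantile normalization, 2 with the robust prior, 0 with the block, 3 at 0.05 and 0 to 1 with 1 library left out. Without the filter, the partner list (12) gave 5, the heat shock list (9) 4, the endoplasmic reticulum list (11) 6, the mitochondrial list (2) 0 and the genes near HSPA1A (3) 1, with 28536 genes tested. With 1 library left out, the ranges were 6 to 8, 5 to 10, 5 to 8, 0 to 2 and 0 to 3. The mitochondrial list gave 1 at a mean of at least 5 FPKM and 1 with the block. With quantile normalization 14 heat shock genes passed. At 0.05, 16 heat shock genes and 8 genes near HSPA1A passed. Genes listed at 0 in one rescue (6 at 1 FPKM) were 57 at 0.1 FPKM, 3 at 5 FPKM and 7 to 11 with 1 library left out. Replicate numbers did not pair the samples (correlations of same-numbered deviations -0.052, -0.035 and -0.0026), and no 2KR-MYB library had its highest correlation with its own number. The fits without the filter hold more genes and those with a library left out hold fewer samples. The cause of the changed counts was not tested for any setting. FPKM carry no depth, so the precision of low genes such as HSPA1L and HSPA6 is not known beyond the spread of 3 libraries.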
